A study of Sus scrofa with 20 samples.

Results

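The genes described here are the chemokines and chemokine receptors of pig epicardial adipose tissue, the fat that lies on the heart muscle, in a feeding study of Ossabaw miniature pigs. They were taken by name: every row whose symbol starts with CCL, CXCL, CCR, CXCR, CX3C, XCL, XCR or ACKR followed by a number, L or R. That rule found 46 rows among the 22861 of the deposited table of unique exon reads (the first table) and another 19 among the 10157 names of the table of unique gene reads (the second table). The 65 rows stand for 61 different genes, because CXCR7 is the older name of ACKR3, CCRL1 is that of ACKR4, and CCR2 appears under 3 names. No measured value entered the rule.

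RNA was sequenced from 20 libraries in 3 groups. The WD+S group (n = 8) was given the cholesterol-lowering drug atorvastatin with a Western diet of refined grain that was rich in cholesterol and saturated fat, which the labels call atherogenic. The HHD+S group (n = 6) was given the drug with a Heart Healthy diet of unrefined grain, fruits, vegetables and unsaturated fat, and the HHD group (n = 6) ate that Heart Healthy diet without the drug. WD+S against HHD+S compares the diets with the drug in both, HHD+S against HHD compares the drug with the diet in both, and WD+S against HHD differs in diet and drug together. Pigs on the Western diet alone were not analysed here. Neither age, duration, dose nor the sex of single animals is in the labels; the design lists boars and gilts. The labels do not say that libraries came from separate animals, so p-values measure the spread between these libraries.

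Library totals in the first table ran between 2749337 and 6543337 reads. All 8 adipocyte markers had reads in all libraries and summed to between 11070 and 25050 CPM (counts scaled to a common library size), while the 6 cardiomyocyte markers summed to between 22.8 and 1225 CPM. The table names carry a number, 1 for 12 libraries and 2 for 8, whose meaning is not stated; number 2 holds WD+S replicates 5 to 8, HHD+S replicates 5 and 6, and HHD replicates 5 and 6. HHD replicates 3 and 5 carried over 100 reads of both XIST, an RNA of females, and Y-linked genes, which goes against a single sex. HHD+S replicates 5 and 6 stood apart from their group in interferon-induced genes, and the edgeR fold changes of named genes that involve HHD+S are also given without these libraries. WD+S replicates 8 and 7 were the highest of their group in the same genes, but stay in those fits. In bulk tissue, fewer cells of a type and less RNA per cell cannot be told apart.

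Chemokines are small secreted proteins that guide leukocytes along concentration gradients by binding receptors coupled to G proteins, and their family names (CC, CXC, CX3C, XC) describe the spacing of conserved cysteines. Atypical receptors bind chemokines without G protein signalling and instead scavenge or transport them. In fat, chemokines such as CCL2 are known for drawing monocytes into the tissue, and CXCL9, CXCL10 and CXCL11 are induced by interferons and attract activated T and NK cells through CXCR3. Roles given below are known mostly from human and mouse.

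Levels were compared between genes only on the authors' RPKM scale, which corrects for gene length. CC ligands led. CCL14, a ligand of CCR1, had a median of 190.4 RPKM over the 20 libraries (range 79.3 to 412.9). CCL2, the main ligand of CCR2, had a median of 134.4 RPKM. CCL19 and CCL21, which guide CCR7-bearing lymphocytes and dendritic cells, had medians of 104.9 and 100.3 RPKM. These ranges overlapped, so their order is not fixed. ACKR1, the Duffy antigen of venules and red cells, had a median of 77.0 RPKM and was the highest of the receptors. CXCL12, the ligand of CXCR4 that retains progenitors and lymphocytes in tissue, followed at 68.6 RPKM. Signalling receptors were low by comparison: CXCR4 had a median of 19.2 RPKM, CX3CR1 9.61, CCR1 3.07, CCR2 2.38 and CXCR3 0.274 RPKM. CXCL10 had a median of 13.0 RPKM but a range of 3.75 to 751.9, the highest single value of any name.

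**Figure D1:**
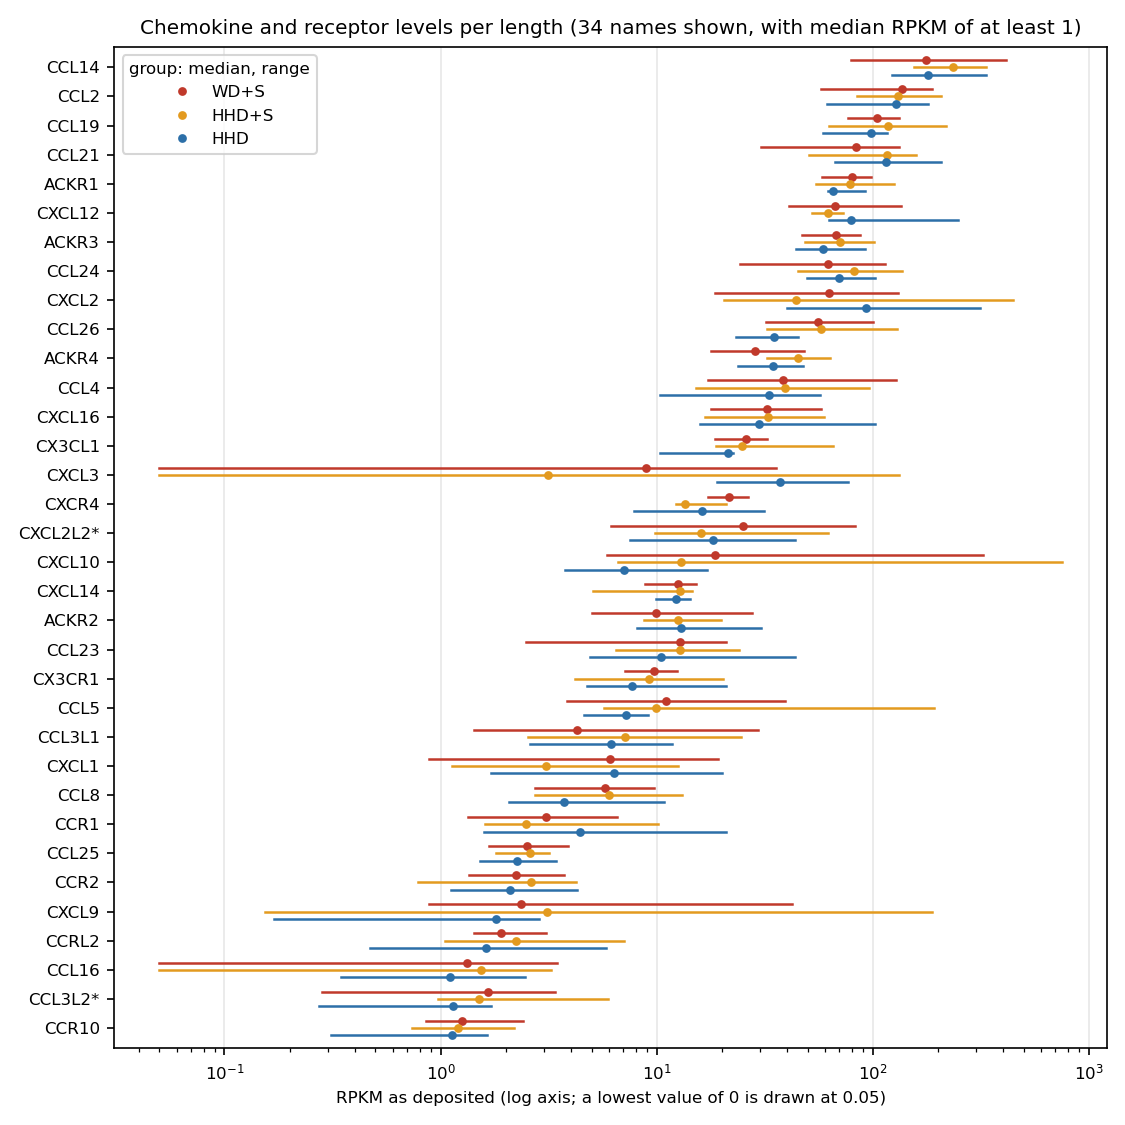
Deposited RPKM (log axis) of 34 names with a median of at least 1 RPKM over 20 libraries; points are group medians and lines run from the lowest to the highest library (WD+S n = 8, HHD+S n = 6, HHD n = 6). CCL14, CCL2, CCL19 and CCL21 lie at the top, and CXCL10 spans 3.75 to 751.9 RPKM.

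Of the 65 rows, 32 passed the filter on low counts and were tested, 22 of them in the first table and 10 of them in the second. Among the 33 not tested, 5 had no read in any library: CCL20, CXCR5 and CCR2_1 in the first table, which allows at most 0.0367 CPM over all libraries, and CXCL1 and CXCL2L1* in the second (asterisk as in the file), which allows at most 0.0372 CPM. These limits, like the read counts below, cover counting error only. CXCL1 and CXCR5 had RPKM above 0 in the second table, with medians of 5.66 and 0.363; for CXCL1 no unique read stands behind that value. Another 12 rows held under 40 reads in all in the table used for them, among them the T cell homing receptors CCR4, CCR8, CCR9 and CXCR6 and the ligands CCL17, CCL22, CCL27 and CCL28. For CXCR6, counted in the first table, the second held 65 reads. The remaining 16 held 40 reads or more. Some of these were thin in every library, such as CCR10 (135 reads, at most 16 in a library) and CCL3L2* (137 reads, at most 21), which had reads in all 20 libraries. Others were concentrated in few libraries, such as CXCL9 (754 reads in the first table, 366 of them in HHD+S replicate 6) and CXCL6 (286 reads in the second table, 204 of them in HHD replicate 2). CXCL8, CXCL11, CXCL13 and CXCR3 were also among the 16.

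No member differed between groups at an adjusted p under 0.05 in any of the 3 comparisons by edgeR's quasi-likelihood test, nor did any other gene: those passing were 0.0% of 11366 genes in the first table and 0.0% of the second table's 6685. For HHD+S against HHD, 6 of 32 members had an unadjusted p under 0.05, 5 higher (CCL5, CXCL10, CCL26, CCL19, CX3CL1) and 1 lower (CXCL12), where 8.45% and 8.72% of all genes in the first and second table did (4.72% and 5.12% higher, 3.73% and 3.61% lower). For WD+S against HHD+S there were 4 of 32, CXCR4 higher and ACKR4, CCL5 and CCL19 lower, against 8.69% and 8.18% of all genes (5.9% and 5.73% higher, 2.79% and 2.45% lower). For WD+S against HHD there were 2 of 32, CCL26 and CXCL10, both higher, against 11.4% and 11.1% of all genes (7.56% and 7.42% higher, 3.87% and 3.72% lower). Without HHD+S replicates 5 and 6, 1 of 32 members had an unadjusted p under 0.05 for HHD+S against HHD (CCR1, lower, log2 fold change -1.67), against 5.64% and 5.18% of all genes. For WD+S against HHD+S there were 2 of 32 (CXCL10 and CCL5, both higher), against 8.33% and 7.93%. That fit dropped the 2 libraries highest in CXCL10 and CCL5, both HHD+S, and kept WD+S replicate 8, the next highest. The direction of these 2 members was therefore largely set by that choice. DESeq2 called 1 member, CXCL10 in HHD+S against HHD, at a log2 fold change of 4.52 ± 1.09 (SE) and an adjusted p of 0.0379; it called 0.0981% of the first table's genes and 0.169% of the second table's in that comparison. DESeq2 called no member for WD+S against HHD+S, where it called 0.102% and 0.0712% of all genes, and none for WD+S against HHD, where it called 0.782% and 1.1%.

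**Figure D2:**
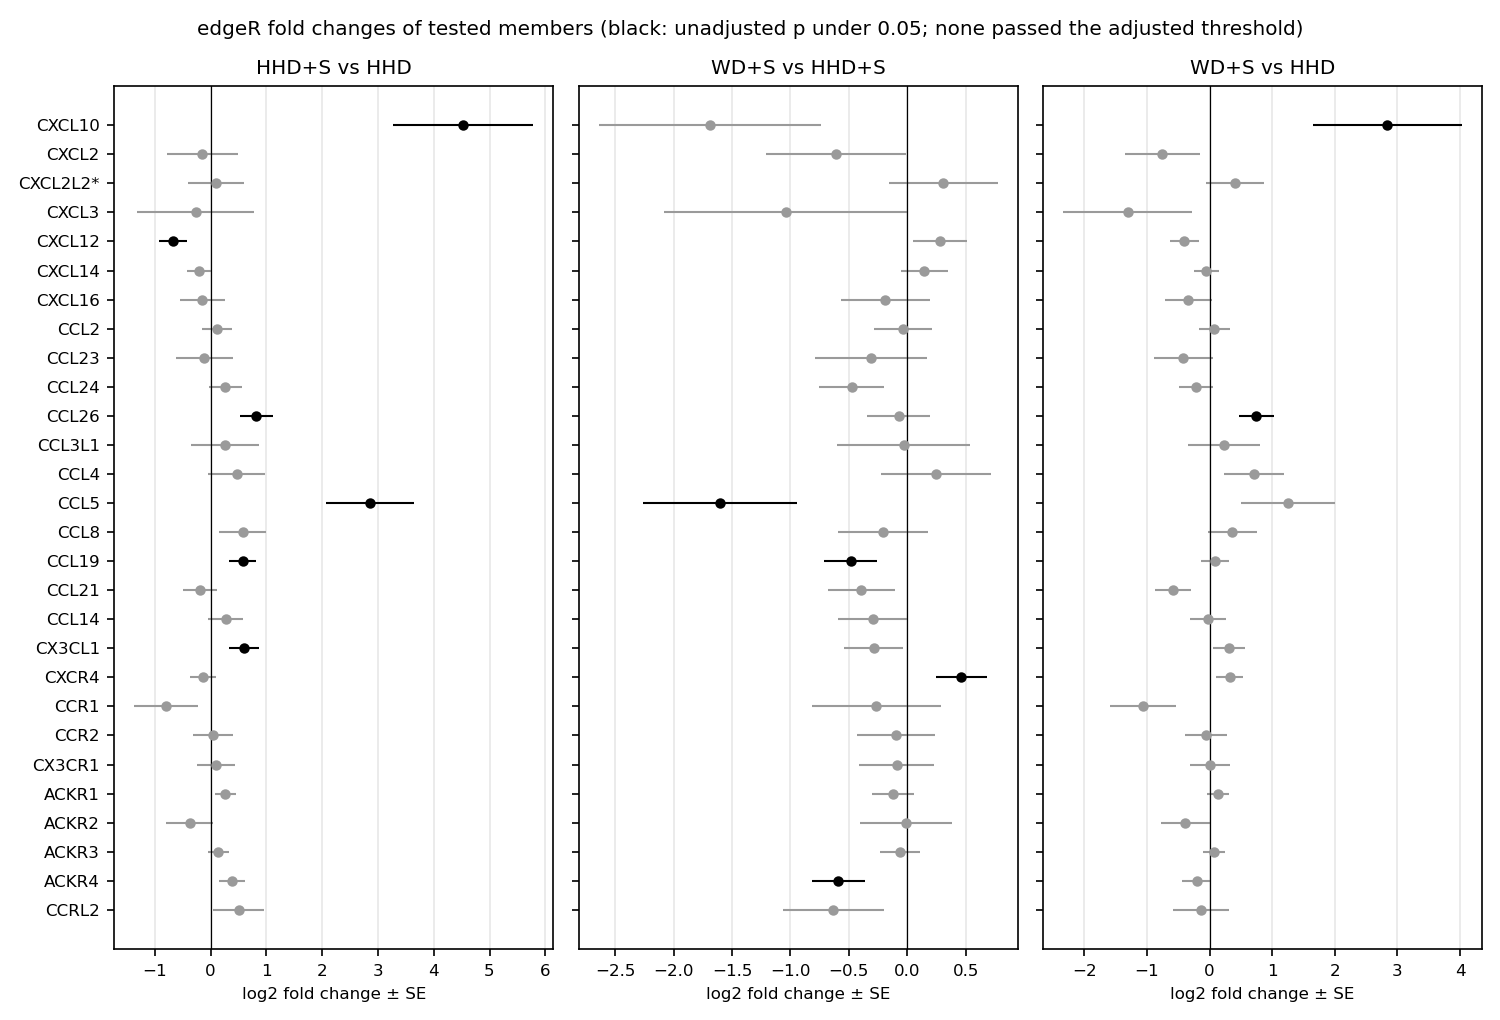
edgeR log2 fold changes with standard errors of 28 tested members drawn once each, by role, for HHD+S against HHD, WD+S against HHD+S and WD+S against HHD; black points had an unadjusted p under 0.05. CXCL10 and CCL5 lie farthest right in HHD+S against HHD, at 4.53 and 2.86.

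Over the list of members, the median log2 fold change was 0.192 for HHD+S against HHD (22 of 32 positive), -0.211 for WD+S against HHD+S (27 of 32 negative) and 0.0397 for WD+S against HHD (17 of 32 positive). The median over all genes tested in the first table was -0.0119, -0.00826 and -0.0192 in the same order. These comparisons share the HHD+S and HHD libraries. Without HHD+S replicates 5 and 6, the members' median was -0.0454 for HHD+S against HHD and 0.238 for WD+S against HHD+S, so each sign turned. Over all genes of the first table, 48.1% were positive for HHD+S against HHD and 51.8% negative for WD+S against HHD+S.

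High values of the CXCR3 ligands came from few libraries. CXCL10 ran from 3.73 to 165 CPM in WD+S libraries (median 8.71), from 3.07 to 372 CPM in HHD+S libraries (median 5.72) and from 2.00 to 9.01 CPM in HHD libraries (median 3.11). The high values were those of WD+S replicate 8 (165 CPM) and of HHD+S replicates 6 (372 CPM) and 5 (201 CPM). WD+S replicate 7, at 26.7 CPM, was next, and the other 4 HHD+S libraries, at 3.07 to 6.32 CPM, lay within the range of HHD. CXCL9 had the same 3 libraries on top: WD+S replicate 8 held 28.7 CPM, HHD+S replicate 6 held 110 CPM and HHD+S replicate 5 held 40.3 CPM. Elsewhere it stayed at or below 5.42 CPM (WD+S), 2.23 CPM (HHD+S) and 2.27 CPM (HHD). CXCL11 reached 6.73 CPM in WD+S replicate 8, 8.45 CPM in HHD+S replicate 6 and 4.64 CPM in HHD+S replicate 5, and was at most 0.955 CPM in all other libraries. Their receptor CXCR3 rested on 63 reads in all and was highest in HHD+S replicates 6 (2.72 CPM) and 5 (2.20 CPM).

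CXCL10 had a log2 fold change of 4.53 ± 1.26 (SE) for HHD+S against HHD, with an edgeR adjusted p of 0.40, and was above all HHD libraries in 2 of 6 HHD+S libraries. By limma-voom with quality weights it was 2.25, and with the table-name number as a term in edgeR it was 2.84. The fold change was 0.11 without HHD+S replicates 5 and 6, and 4.35 without HHD replicates 3 and 5. The difference of mean log2 CPM was 0.32 among libraries numbered 1 (4 against 4) and 5.82 among those numbered 2 (2 against 2). Between WD+S and HHD the log2 fold change was 2.84 ± 1.19, with an edgeR adjusted p of 0.35. Here 4 of 8 WD+S libraries were above all HHD libraries, and the within-number differences were 1.25 (number 1) and 1.94 (number 2). It was 1.61 by limma-voom, 1.75 with the table-name number as a term, 1.37 without WD+S replicate 8 and 0.90 without WD+S replicates 7 and 8. Between WD+S and HHD+S it was -1.69 ± 0.95, with an edgeR adjusted p of 0.65; this turned to 2.72 without HHD+S replicates 5 and 6, and was -0.54 without HHD+S replicate 6, -3.16 without WD+S replicate 8 and -3.63 without WD+S replicates 7 and 8. By limma-voom it was -0.64, and with the table-name number as a term -1.10. Within number 1 the difference was 0.93, and within number 2 it was -3.88, so the direction was not the same in both.

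CCL5, which draws T cells and monocytes, had its 2 highest values in the same HHD+S libraries. It ran from 2.22 to 23.9 CPM in WD+S (median 6.97), from 3.26 to 120 CPM in HHD+S (median 6.35) and from 3.12 to 5.15 CPM in HHD (median 4.74). HHD+S replicate 6 held 120 CPM and replicate 5 held 50.1 CPM, and the other HHD+S libraries at most 8.23 CPM. The HHD+S against HHD log2 fold change was 2.86 ± 0.78 (SE), with an edgeR adjusted p of 0.40. It was 1.30 by limma-voom, 1.70 without HHD+S replicate 6, 0.20 without replicates 5 and 6, and 2.79 without HHD replicates 3 and 5. Within number 1 the difference of mean log2 CPM was 0.17, and within number 2 it was 3.90. The WD+S against HHD+S log2 fold change was -1.60 ± 0.66, with an edgeR adjusted p of 0.46, -0.61 by limma-voom, -0.45 without HHD+S replicate 6, and 1.05 without HHD+S replicates 5 and 6. The within-number differences were 0.40 (number 1) and -2.88 (number 2), again of opposite sign.

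Marker lists were measured beside these values. The 20 interferon-induced genes found of 21 listed summed to between 741 and 6960 CPM in WD+S, between 744 and 6847 CPM in HHD+S and between 611 and 714 CPM in HHD; the highest were WD+S replicates 8 (6960) and 7 (3025) and HHD+S replicates 6 (6847) and 5 (5497). The 10 T cell markers lay between sums of 9.92 and 75.4 CPM (WD+S), 17.3 and 215 CPM (HHD+S), and 13.8 and 67.2 CPM (HHD). WD+S replicate 8 held 75.4 CPM of them, set beside 215 and 182 CPM in HHD+S replicates 6 and 5. The 8 NK and cytotoxic markers summed to 19.9 to 88.2 CPM in WD+S, to 395 and 300.4 CPM in HHD+S replicates 6 and 5, to 16.9 to 26.3 CPM in the other HHD+S libraries and to 18.6 to 54.1 CPM in HHD. GZMB, a protease of cytotoxic cells, was at 21.4 and 11.5 CPM in those 2 HHD+S libraries and at 8.04 CPM in WD+S replicate 8. GZMB was at most at 0.556 CPM in the other WD+S libraries, at 0.192 CPM in the other HHD+S libraries and at 0 in all HHD libraries. NKG7, GNLY, PRF1 and GZMA were also highest of WD+S in replicate 8, but GZMK (0.217 CPM), KLRK1 (1.09 CPM) and KLRB1 (0.652 CPM) were not. KLRB1, at 1.22 CPM in HHD+S replicate 5, lay within HHD (0 to 1.29 CPM). GNLY was the largest part of the NK and cytotoxic sum in HHD+S replicates 6 and 5, at 219.5 and 188.5 CPM. The part of these cells and of the interferon-induced genes in the chemokine differences was not tested.

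**Figure D3:**
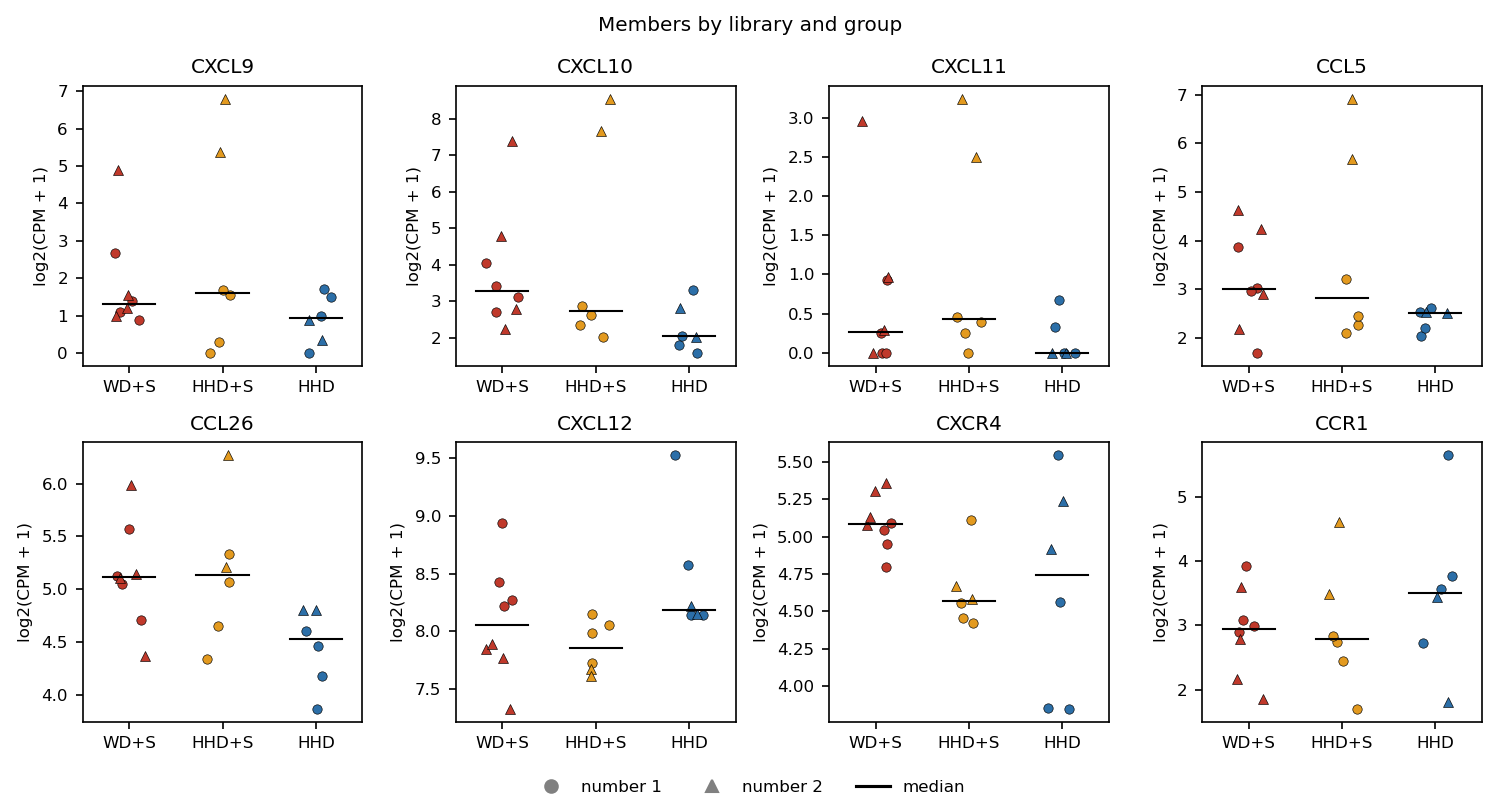
Levels as log2(CPM + 1) of CXCL9, CXCL10, CXCL11, CCL5, CCL26, CXCL12, CXCR4 and CCR1 in each library, with group medians as lines; circles are libraries whose table names carry number 1 and triangles number 2 (WD+S n = 8, HHD+S n = 6, HHD n = 6). For CXCL10 the HHD+S triangles stand at 201 and 372 CPM, above every HHD library.

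The make-up of the family shifted in those libraries. The 3 CXCR3 ligands made up 22.3% of the summed member RPKM in WD+S replicate 8, 4.60% in WD+S replicate 7, and 24.0% and 30.2% in HHD+S replicates 5 and 6; in every other library they made up at most 2.25%. CC ligands of inflammation were steadier, with 19.1% to 30.8% in WD+S, 17.4% to 28.1% in HHD+S and 17.7% to 25.4% in HHD. The summed RPKM itself ran from 785 in WD+S replicate 5 to 3157 in HHD+S replicate 6.

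**Figure D4:**
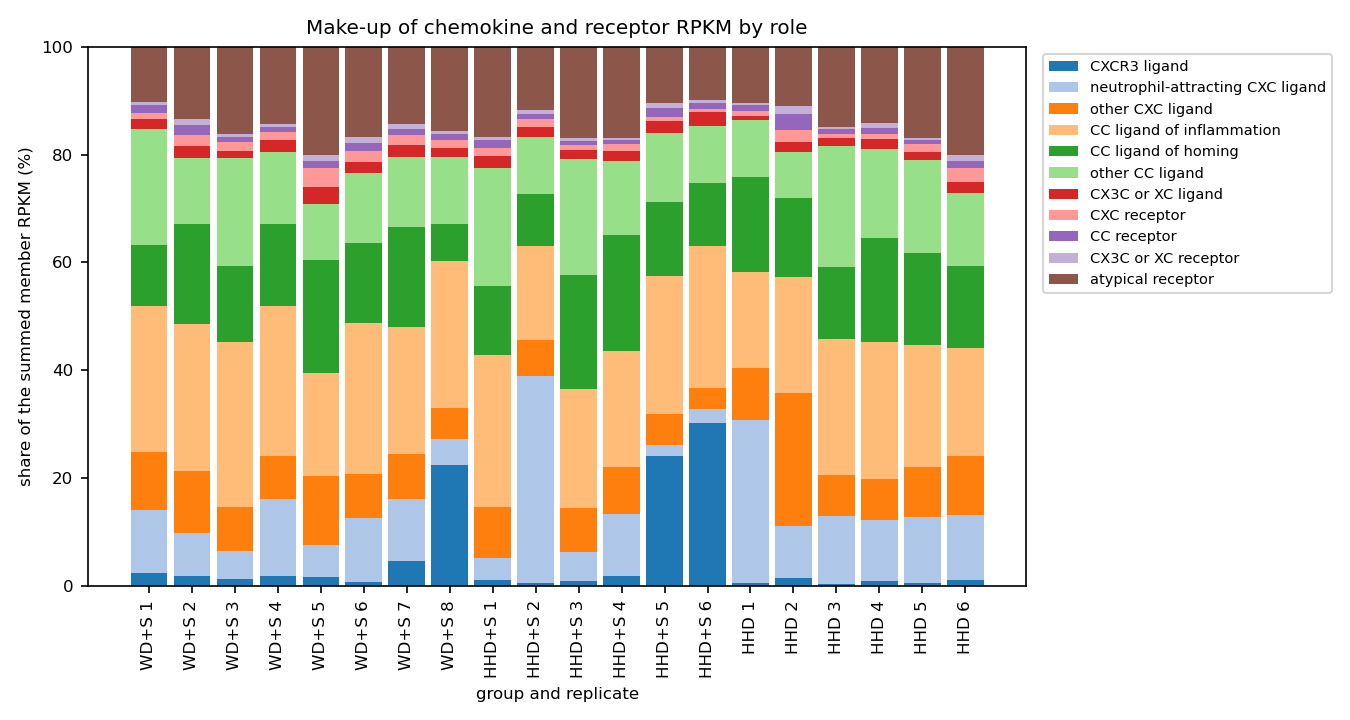
Share of the summed member RPKM (%) taken by each role class in each of the 20 libraries. The CXCR3 ligands take 22.3% in WD+S replicate 8 and 24.0% and 30.2% in HHD+S replicates 5 and 6, and the neutrophil-attracting CXC ligands take 38.5% in HHD+S replicate 2.

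Among the CC ligands of inflammation, 8 of 13 were tested. Of the 8, 7 had a positive fold change for HHD+S against HHD, against 48.1% and 46.7% of all genes in the first and second table. For WD+S against HHD+S, 7 had a negative one, against 51.8% and 51.7% of all genes. Without HHD+S replicates 5 and 6, 2 of the 8 were positive for HHD+S against HHD and 1 was negative for WD+S against HHD+S, so both counts rest on those libraries. CCL26, a ligand of the eosinophil receptor CCR3, ran from 19.6 to 62.4 CPM in WD+S (median 33.7), from 19.3 to 76.2 CPM in HHD+S (median 34.2) and from 13.6 to 27.0 CPM in HHD (median 22.2). Above all HHD libraries lay 6 of 8 WD+S and 4 of 6 HHD+S libraries. The log2 fold change was 0.74 ± 0.28 (SE) for WD+S against HHD, with an edgeR adjusted p of 0.27, and 0.82 ± 0.29 for HHD+S against HHD, with an edgeR adjusted p of 0.39. Without HHD replicates 3 and 5 these were 0.83 and 0.92; HHD+S against HHD was 0.48 by limma-voom, 0.49 without HHD+S replicate 6 and 0.43 without replicates 5 and 6. Its sign was the same within both table-name numbers, with differences of 0.85 (number 1) and 0.35 (number 2) for WD+S against HHD and of 0.58 and 0.94 for HHD+S against HHD. CCR3 itself had 73 reads in all and was not tested.

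CCL2 had medians close to each other, with 39.8 to 135 CPM in WD+S (median 95.6), 59.0 to 150 CPM in HHD+S (median 95.1) and 43.6 to 134 CPM in HHD (median 94.3). CCL14 ran from 64.2 to 316 CPM in WD+S (median 143), from 132 to 277 CPM in HHD+S (median 186) and from 101 to 271 CPM in HHD (median 152). CCL24, like CCL26 a ligand of CCR3, ran from 37.9 to 167 CPM in WD+S (median 96.5), from 73.5 to 204 CPM in HHD+S (median 129) and from 77.9 to 158 CPM in HHD (median 104). All 3 groups overlapped for these 3 genes. CCL4 and CCL3L1, which attract monocytes and T cells, were highest in WD+S replicate 1, at 37.1 and 26.2 CPM; CCL3L1 has a near copy, CCL3L2*, so its reads may be divided between rows.

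Of the homing ligands, CCL19 and CCL21 were tested. CCL19 ran from 50.1 to 86.2 CPM in WD+S (median 67.0), from 41.9 to 151 CPM in HHD+S (median 78.0) and from 40.6 to 76.9 CPM in HHD (median 68.6). The 2 highest HHD+S values were 151 CPM in replicate 3 and 146 CPM in replicate 6. Its log2 fold change was 0.58 ± 0.24 (SE) for HHD+S against HHD, with an edgeR adjusted p of 0.55, 0.25 by limma-voom, 0.38 without HHD+S replicate 3 and 0.43 without HHD+S replicates 5 and 6. For WD+S against HHD+S it was -0.49 ± 0.23, with an edgeR adjusted p of 0.55, -0.28 by limma-voom, -0.30 without HHD+S replicate 3, -0.32 without replicate 6 and -0.33 without replicates 5 and 6. The difference lay mostly among libraries numbered 2: within number 1 it was 0.29 for HHD+S against HHD and -0.05 for WD+S against HHD+S, and within number 2 it was 0.83 and -0.85. CCL21 ran from 27.4 to 116 CPM in WD+S (median 72.3), from 43.8 to 140 CPM in HHD+S (median 106) and from 59.6 to 187 CPM in HHD (median 101). Its WD+S against HHD log2 fold change was -0.59 ± 0.29, with an edgeR adjusted p of 0.44 (-0.63 within number 1, -0.36 within number 2), and -0.39 without HHD replicate 1. The 4 lymphatic endothelium markers summed to 49.5 to 212 CPM in WD+S, 83.0 to 268 CPM in HHD+S and 97.4 to 215 CPM in HHD. LYVE1 was the largest part in every library (WD+S 23.5 to 173.8, HHD+S 48.4 to 232.8 and HHD 66.0 to 177.5 CPM). Over all libraries, PROX1 was at most 2.52 CPM, FLT4 at 14.6 to 28.1 CPM and PDPN at 9.45 to 21.4 CPM. The sum thus mainly follows LYVE1. The part of these cells in the CCL19 and CCL21 values was not tested.

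ACKR4 scavenges CCL19, CCL21 and CCL25. It ran from 43.9 to 126 CPM in WD+S (median 72.6), from 86.9 to 157 CPM in HHD+S (median 111) and from 60.9 to 124 CPM in HHD (median 87.1). Below all HHD+S libraries lay 5 of 8 WD+S libraries. The WD+S against HHD+S log2 fold change was -0.59 ± 0.22 (SE), with an edgeR adjusted p of 0.43, and -0.48 without HHD+S replicates 5 and 6. ACKR4 was named for its small p in this comparison, so values from subsets of the same libraries are not separate evidence. Among libraries numbered 1, WD+S ran from 43.9 to 67.9 CPM and HHD+S from 86.9 to 139 CPM (4 against 4). The difference of mean log2 CPM was -1.03. Among those numbered 2, the ranges of 77.2 to 126 CPM in WD+S and 114 to 157 CPM in HHD+S overlapped, and the difference was -0.40. With the number as a term in the fit the log2 fold change was -0.75 ± 0.18, with an edgeR adjusted p of 0.37. The second table held 7616 reads for ACKR4 and the first 256 under its older name CCRL1, a ratio of 29.8, so values from both tables are not interchangeable.

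All 7 rows of atypical receptors were tested, 2 of them counting ACKR3 and ACKR4 again under their older names. All 7 had a negative fold change for WD+S against HHD+S (-0.71 to -0.01). So did 27 of all 32 tested members, and 51.8% and 51.7% of all genes in the first and second table. Without HHD+S replicates 5 and 6, 3 of the 7 were negative (-0.48 to 0.26 over the 7), against 49.7% and 51.8% of all genes. ACKR1 ran from 120 to 207 CPM in WD+S (median 162), from 114 to 262 CPM in HHD+S (median 164) and from 125 to 190 CPM in HHD (median 138). ACKR3, which scavenges CXCL12, ran from 96.5 to 192 CPM in WD+S (median 145), from 102 to 210 CPM in HHD+S (median 156) and from 96.4 to 194 CPM in HHD (median 132). ACKR2, a scavenger of inflammatory CC chemokines, ran from 13.0 to 69.3 CPM in WD+S, 22.0 to 48.5 CPM in HHD+S and 19.9 to 78.5 CPM in HHD. The groups overlapped for all 3 receptors.

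CXCL12 ran from 160 to 490 CPM in WD+S (median 266), from 195 to 283 CPM in HHD+S (median 232) and from 281 to 737 CPM in HHD (median 291). The HHD group was tight apart from replicate 2, with 5 libraries between 281 and 380 CPM and replicate 2 at 737 CPM. Below all HHD libraries lay 5 of 6 HHD+S libraries. The HHD+S against HHD log2 fold change was -0.68 ± 0.25 (SE), with an edgeR adjusted p of 0.47. It was -0.57 without HHD+S replicates 5 and 6, -0.37 without HHD replicate 2 and -0.84 without HHD replicates 3 and 5. The sign was the same within number 1 (-0.62) and number 2 (-0.55). The 6 fibroblast markers are of a cell type known to make CXCL12. They summed to 9690 to 26080 CPM in WD+S, 8169 to 21470 CPM in HHD+S and 21160 to 30280 CPM in HHD. COL3A1 was the largest part in every library (WD+S 4789 to 14890, HHD+S 3163 to 12600 and HHD 12000 to 18440 CPM). For DCN the ranges were 2375 to 6231 CPM in WD+S, 2766 to 5311 CPM in HHD+S and 3897 to 4918 CPM in HHD. The groups overlapped for each of the 6 markers. The part of these cells in the CXCL12 values was not tested.

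CXCR4, the signalling receptor of CXCL12, ran from 26.8 to 40.1 CPM in WD+S (median 32.9), from 20.5 to 33.6 CPM in HHD+S (median 22.7) and from 13.4 to 45.8 CPM in HHD (median 26.0). In HHD+S, 5 libraries lay between 20.5 and 24.4 CPM and replicate 2 at 33.6 CPM, so that only this library reached into the WD+S range. The WD+S against HHD+S log2 fold change was 0.46 ± 0.22 (SE), with an edgeR adjusted p of 0.57. It was 0.45 without HHD+S replicates 5 and 6, and the within-number differences were 0.34 (number 1) and 0.60 (number 2). Other CXC receptors were sparse, with 94 reads in all for CXCR2 and 31 for CXCR1 in the second table, and 3 for CXCR6 in the first.

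CX3CL1, a membrane-bound ligand that captures monocytes on endothelium, ran from 13.1 to 25.3 CPM in WD+S (median 18.6), from 13.3 to 48.9 CPM in HHD+S (median 17.1) and from 9.07 to 18.8 CPM in HHD (median 16.5). HHD+S replicates 6 and 5, at 48.9 and 30.3 CPM, were above every other library. The HHD+S against HHD log2 fold change was 0.60 ± 0.27 (SE), with an edgeR adjusted p of 0.57, 0.33 by limma-voom, 0.25 without HHD+S replicate 6 and -0.01 without HHD+S replicates 5 and 6. Within number 1 the difference was 0.04, and within number 2 it was 1.26. Its receptor CX3CR1 ran from 13.1 to 24.6 CPM in WD+S (median 18.3), from 8.93 to 39.3 CPM in HHD+S (median 17.8) and from 9.58 to 41.2 CPM in HHD (median 14.3).

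CCR1, a receptor of monocytes and macrophages, was high in HHD replicate 2. It ran from 2.61 to 14.2 CPM in WD+S (median 6.72), from 2.23 to 23.5 CPM in HHD+S (median 5.93) and from 2.48 to 49.7 CPM in HHD (median 10.4). HHD replicate 2 held the 49.7 CPM and the other 5 HHD libraries at most 12.7 CPM. The WD+S against HHD log2 fold change of CCR1 was -1.06 ± 0.53 (SE), with an edgeR adjusted p of 0.46, -0.68 by limma-voom and -0.20 without that library. Within number 1 the difference was -0.73, and within number 2 it was -0.01. The 11 macrophage markers summed to between 557 and 3017 CPM in WD+S, between 1101 and 4851 CPM in HHD+S and between 988 and 4135 CPM in HHD; HHD+S replicate 6 (4851) and HHD replicate 2 (4135) were the highest libraries. C1QA, C1QB and C1QC held 1013, 1556 and 1375 CPM of it in HHD+S replicate 6 and 717, 1048 and 1154 CPM in HHD replicate 2. With CD68 and MSR1, these were highest in HHD+S replicate 6, but AIF1 and MARCO were highest in HHD replicate 2. CSF1R (648 CPM) and CD14 (96.2 CPM) were highest in HHD replicate 3, and MRC1 (152.7 CPM) in HHD replicate 1. CD163 was at most 0.904 CPM. The part of macrophages in the values of CCR1 was not tested.

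Neutrophil-attracting CXC ligands, which act on CXCR1 and CXCR2, had wide ranges within HHD+S and HHD. CXCL2 ran from 19.9 to 132 CPM in WD+S (median 67.6), from 21.7 to 445 CPM in HHD+S (median 48.9) and from 40.9 to 308 CPM in HHD (median 96.7). HHD+S replicate 2 held 445 CPM and HHD replicate 1 held 308 CPM, each far above the rest of its group. These ligands made up 4.94% to 14.3% of the member RPKM in WD+S libraries, 38.5% in HHD+S replicate 2 and 30.3% in HHD replicate 1. CXCL1, CXCL2, CXCL3, CXCL2L1* and CXCL2L2* are close copies of each other, and reads that fit several of them may be lost from the unique counts. Such reads may enter the RPKM shares, since the deposited RPKM also count reads that are not unique. In HHD+S replicate 2, CXCL3 took 8.36% of the member RPKM on 87 unique reads. CXCL8 and CXCL6 had another pattern. CXCL8 stood at 10.04 CPM in WD+S replicate 1 and 27.7 CPM in HHD replicate 2, and at most at 5.55 CPM elsewhere. CXCL6 stood at 9.74 CPM in WD+S replicate 1 and 51.3 CPM in HHD replicate 2, and at most at 1.99 CPM elsewhere. The 6 neutrophil markers found of 8 listed summed to 97.5 CPM in WD+S replicate 1, 285 CPM in HHD replicate 2 and 29.2 CPM in HHD replicate 1; all other libraries lay between 1.32 and 14.2 CPM, and HHD+S replicate 2 held 6.17 CPM. S100A8, S100A9, S100A12, MPO and LTF were each highest in HHD replicate 2 and next in WD+S replicate 1. CSF3R did not follow them, with its highest value of 10.1 CPM in HHD replicate 3. It was at 5.03 CPM in HHD replicate 2 and 3.84 CPM in WD+S replicate 1. The part of neutrophils in the values of CXCL8 and CXCL6 was not tested.

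Across the 29 tested members counted once, WD+S replicate 1 had the highest CPM of all 20 libraries for 4 and WD+S replicate 5 had the lowest for 7. HHD+S replicate 6 had the highest CPM of all 20 libraries for 9 (ACKR3, ACKR4, CCL2, CCL24, CCL26, CCL5, CCL8, CX3CL1 and CXCL10), and HHD replicate 2 for 7 (CCL23, CCR1, CCR2, CX3CR1, CXCL12, CXCL16 and CXCR4). The same counts over all genes were not made. These numbers therefore describe the libraries and do not show anything particular to the members.

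**Figure D5:**
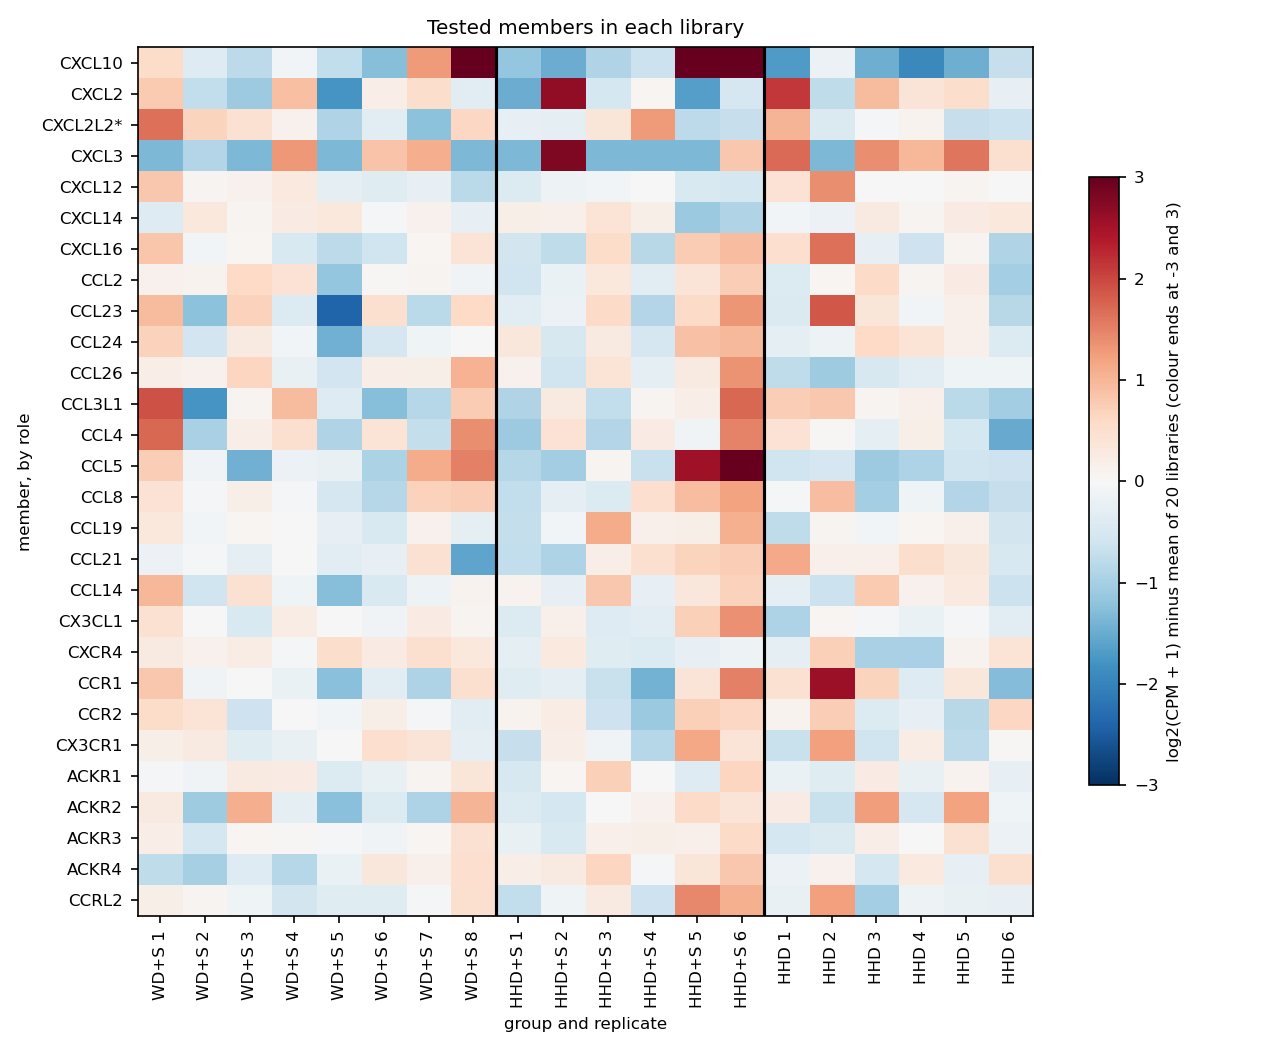
log2(CPM + 1) of 28 tested members in each library minus the mean over 20 libraries, with genes ordered by role and groups divided by lines (WD+S, HHD+S, HHD); the colour scale ends at -3 and 3. CXCL10 is deepest in WD+S replicate 8 and HHD+S replicates 5 and 6, and CCR1 in HHD replicate 2.

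Of 50 listed genes that act behind the receptors or handle chemokines, such as G protein subunits, kinases and heparan sulfate enzymes, 47 were tested, and none passed the threshold in any comparison by edgeR. At an unadjusted p under 0.05, HHD+S against HHD had 3 higher and 1 lower, WD+S against HHD+S 1 of each, and WD+S against HHD 1 higher and 3 lower. These are 8.51%, 4.26% and 8.51% of the 47, against 8.45%, 8.69% and 11.4% of all genes in the first table, shares near or below the background. For HHD+S against HHD these included IRF1 (log2 fold change 1.51) and CD74 (0.88), and SDC1 (-0.56). IRF1 is a transcription factor of the interferon response. IRF1 ran from 43.7 to 171 CPM in WD+S, from 32.7 to 381 CPM in HHD+S and from 29.8 to 58.2 CPM in HHD, with 381 and 216 CPM in HHD+S replicates 6 and 5. Without those libraries the fold changes were -0.00068 for IRF1, 0.17 for CD74 and -0.35 for SDC1. GNG2, a G protein subunit, was 0.66 for WD+S against HHD+S and 0.54 for WD+S against HHD, and RAC2, a GTPase of leukocyte migration, was -0.996 for WD+S against HHD+S. Without HHD+S replicates 5 and 6, which held 64.0 and 94.7 CPM of RAC2 where the other HHD+S libraries held at most 23.2 CPM, RAC2 was 0.13 and GNG2 0.50 for WD+S against HHD+S. Between WD+S and HHD the kinases LYN and FGR were -0.56 and -0.54, and EXT1, which extends heparan sulfate, was -0.40; LYN was -0.36 without HHD replicate 2 and FGR -0.35 without HHD replicate 3. The list's median log2 fold change was 0.0129 for HHD+S against HHD, -0.0949 for WD+S against HHD+S and -0.0773 for WD+S against HHD.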

How the data were processed

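RNA sequencing of epicardial fat gave 20 libraries, grouped by their diet label. Per the labels' protocols, libraries were made with TruSeq RNA v2, a kit that does not mark strand, so overlapping and antisense genes share reads. The submitters' processing notes name bcl2fastq 2.17.1.14 and the build Sscrofa10.2, while the aligner and counter are not stated there. For each library, the authors deposited 2 tables, of raw counts of unique exon reads, and of raw counts of unique gene reads with RPKM. The deposited RPKM values also count reads that are not unique: of the values with 0 unique reads, 2.43% have an RPKM above 0. They entered no test.

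Counts were tested with edgeR 4.0.16 (R 4.3.3; quasi-likelihood F test, TMM scaling, filter at a minimum count of 10 and total of 15) in a fit over all 20 libraries, with Benjamini-Hochberg adjustment over all genes of a table and a threshold of 0.05. CPM are TMM-scaled. Standard errors are approximate, taken from each log2 fold change and its F statistic. Differences within a table-name number are of mean log2 CPM (prior count 2). The steps were tested on simulated data. Alternatives were DESeq2 1.42.0, limma-voom (limma 3.58.1), other scaling, filters, terms, tables and left-out libraries.

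Values per library are given for the 4 members with the smallest p in each comparison, the highest of each role class, CXCL9, CXCL10, CXCL11, CXCR3 and CCL5; others named with values were chosen after these were seen. Members, role classes and lists were chosen with earlier results of these data known. Values of 1 member and 1 listed gene are not reported here, though both are in the counts and medians. Sequences and positions were not used here. The ID of the row CCR2_2 has the symbol CCR3 in the reference names.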

Additional observations from a re-analysis of the deposited data

Results flagged for a closer look

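Of 54 combinations of a group and a named member, 11 held a highest library whose gap to the next was wide against the range of the group. Chance passes this limit in about 1 in 20 groups only if values are normally distributed. The values were CPM without a log scale, so that rate need not hold here. All 11 lay on the high side, several share a library, and the members were chosen with results of these data known, so the number is a description. WD+S replicate 8 accounted for 3: CXCL10 at 165 CPM (others 3.73 to 26.7), CXCL9 at 28.7 CPM (others 0.834 to 5.42) and CXCL11 at 6.73 CPM (others 0 to 0.955). HHD+S replicate 6 stood apart for CCL26 at 76.2 CPM (others 19.3 to 39.4) and CXCL9 at 110 CPM (others 0 to 40.3). HHD+S replicate 2 stood apart for CXCL2 at 445 CPM (others 21.7 to 72.9) and CXCR4 at 33.6 CPM (others 20.5 to 24.4). HHD replicate 2 accounted for 3: CXCL12 at 737 CPM (others 281 to 380), CCR1 at 49.7 CPM (others 2.48 to 12.7) and CX3CR1 at 41.2 CPM (others 9.58 to 20.2). HHD replicate 1 stood apart for CXCL2 at 308 CPM (others 40.9 to 136). CXCL10 and CCL5 in HHD+S are not among these, since 2 libraries were high together.

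In the RPKM column, which no comparison uses, CXCL1 had a median of 5.66 over 20 libraries (0.882 to 20.1) although it had 0 unique reads.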

How the results depend on the processing

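The count of members called stayed at 0 in all 3 comparisons under limma-voom, other scaling, no expression filter, fits of only the 2 groups, the table-name number or the Y-linked level as a term, the second table's counts, and, where they enter a comparison, without HHD replicates 3 and 5, HHD+S replicates 5 and 6, or (chosen after seeing the data) WD+S replicates 7 and 8; leaving out each replicate in turn also gave 0 to 0. DESeq2 gave 1 for HHD+S against HHD, CXCL10 (4.52), and 0 for the others. The cause of any move was not tested. Of 345 recomputed fold changes of named members, 341 kept direction and side of the threshold, 1 (CXCL10 by DESeq2) passed it, and 3 changed sign, all without HHD+S replicates 5 and 6: CX3CL1 for HHD+S against HHD (-0.00656) and CCL5 (1.05) and CXCL10 (2.72) for WD+S against HHD+S. The median of members for WD+S against HHD+S moved to 0.238 in the same fit. Without 1 replicate at a time, CXCL10 ran from 3.37 to 4.89 and CCL5 from 1.70 to 3.10 for HHD+S against HHD. No paired analysis was possible because the labels give no shared replicate numbers; the numbers used follow the order of deposit. Moves of over 1.5 times by limma-voom or with the table-name number as a term stand beside the values of CXCL10, CCL5, CCL26, CCL19, CX3CL1 and CCR1. Members of low CPM rest on few reads, 63 in all for CXCR3.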

Other observations

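PPBP and PF4, chemokines stored in platelets whose names fall outside the rule, were chosen here after their values were seen. PPBP stood at 9.15 CPM in WD+S replicate 1 and 60.1 CPM in HHD replicate 2, and at most at 1.44 CPM in the other 18 libraries. PF4 stood at 5.31 CPM in WD+S replicate 1 and 28.2 CPM in HHD replicate 2, and at most at 0.991 CPM in the others. The same libraries held the most CXCL6 and CXCL8. CXCL13, a ligand of the B cell receptor CXCR5, stood at 5.12 CPM in WD+S replicate 1, 8.75 CPM in HHD+S replicate 6 and, its highest value, 20.3 CPM in HHD replicate 2. The B and plasma cell markers, 7 found of 9 listed, summed to 13.1 CPM in WD+S replicate 1, 13.9 CPM in HHD+S replicate 6 and 16.7 CPM in HHD replicate 2, and PAX5 had no read in any library. XCL1, a chemokine of NK and T cells, was highest in HHD+S replicates 6 and 5, at 7.54 and 2.44 CPM.

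RARRES2, which encodes the chemoattractant chemerin, a ligand of CCRL2, ran from 155 to 323 CPM in WD+S, from 154 to 385 CPM in HHD+S and from 155 to 390 CPM in HHD, with overlapping groups. Mast cell markers other than CPA3, which had no read, were present in every group, and the list summed to 104 to 158 CPM in WD+S, 95.2 to 165 CPM in HHD+S and 98.9 to 172 CPM in HHD.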
